A study of Mus musculus with 16 samples.

Results

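The regions described here are the 212 EZH2 peaks of untreated mouse macrophages that overlapped a peak of acetylated histone H3 lysine 27 (H3K27ac) by at least 1 bp. They were taken from the 9581 EZH2 peaks on chromosomes 1 to 19 and X of GRCm38, so they made up 2.21% of that list (Wilson 95% interval 1.94 to 2.53, which covers counting error only, as do all intervals below). Trimethylation of the same residue (H3K27me3) had a peak over 29 of them and none over the other 183. The regions were selected on the EZH2 and H3K27ac lists, so the presence of these 2 signals, and their strength, is a description of how they were chosen.

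EZH2 is the catalytic subunit of Polycomb repressive complex 2, which places methyl groups on lysine 27 of histone H3 and so keeps developmental genes silent. The acetyltransferases p300 and CBP act on the same lysine, and the acetylated form marks active promoters and enhancers. One histone tail carries either acetyl or methyl groups at this lysine, so peaks of both marks over 1 stretch of DNA must come from different tails, alleles or cells of the population. In macrophages, acetylated chromatin is known from genes of the lineage and of the response to microbes, whereas EZH2 is best known from developmental genes that these cells do not use.

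The cells were C57BL/6 primary macrophages, grown from bone marrow of adult mice for 5 days with M-CSF-conditioned medium. EZH2, p53, H3K27ac and H3K27me3 were each mapped in untreated wild-type cells, and EZH2 also in wild-type cells treated with nigericin, a potassium ionophore, after priming with LPS. No group with LPS alone is among the samples, so priming and nigericin cannot be told apart. The deacetylase SIRT1 was mapped in untreated cells labelled Ezh2-WT, Ezh2-KO, p53-WT and p53-KO, and the labels do not say how either gene was deleted or in which cells. Each of the 9 groups had 1 library (n = 1), so no difference between groups could be tested, and the library names point to 1 input for untreated EZH2 and p53 and another for both histone marks.

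The peak lists were of unequal length and strength. On the chromosomes used they held 5054 EZH2 peaks after nigericin, 4878 p53 peaks, 51582 H3K27ac peaks over 73.0 Mb, 88037 H3K27me3 peaks over 124 Mb and 18087 to 74346 SIRT1 peaks. The number of fragments under a summit could be solved from the listed values. It was at least 7 for EZH2 and 6 for p53. In the histone and SIRT1 lists, where only a sample of peaks was solved, it was at least 9 for the histone marks and 3 or 4 for SIRT1. H3K27ac lay at the starts of 9 of 9 macrophage marker genes (among them Csf1r, Adgre1 and Spi1), 0 of 5 neutrophil, 1 of 5 lymphocyte (Ms4a1), 1 of 5 stromal (Pdgfrb) and 0 of 5 erythroid genes. No share of H3K27ac over all genes is given, so these counts compare the listed cell types only. No EZH2 peak over H3K27ac lay at any of these markers.

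Promoters under these peaks differed widely in base composition, and 5 are printed here. They show CpG-rich cases under EZH2 peaks that met both marks and a range of cases under EZH2 peaks that met H3K27ac alone. Each line gives the 250 bases before a transcription start from RefSeq (GRCm38), 5′ to 3′ on the strand of the gene, in lower case with every CpG dinucleotide in capitals. Tmem178 (chr17:80944382-80944631, plus strand) and Src (chr2:157424043-157424292, plus strand) lay under EZH2 peaks that met both marks. Sstr4 (chr2:148395127-148395376, plus strand), Cyp4v3 (chr8:45333164-45333413, minus strand) and C5ar1 (chr7:16259339-16259588, minus strand) lay under EZH2 peaks that met H3K27ac alone.
Tmem178: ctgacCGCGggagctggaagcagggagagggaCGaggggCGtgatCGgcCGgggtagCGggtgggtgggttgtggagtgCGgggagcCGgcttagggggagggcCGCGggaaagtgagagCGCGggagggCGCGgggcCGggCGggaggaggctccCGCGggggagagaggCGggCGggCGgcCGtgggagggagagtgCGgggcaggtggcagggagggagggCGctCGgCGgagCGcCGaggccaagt
Src: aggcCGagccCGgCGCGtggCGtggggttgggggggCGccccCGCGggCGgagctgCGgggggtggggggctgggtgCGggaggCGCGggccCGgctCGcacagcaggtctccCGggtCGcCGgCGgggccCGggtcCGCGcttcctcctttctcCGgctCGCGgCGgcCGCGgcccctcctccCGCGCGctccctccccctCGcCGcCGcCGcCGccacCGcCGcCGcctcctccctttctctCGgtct
Sstr4: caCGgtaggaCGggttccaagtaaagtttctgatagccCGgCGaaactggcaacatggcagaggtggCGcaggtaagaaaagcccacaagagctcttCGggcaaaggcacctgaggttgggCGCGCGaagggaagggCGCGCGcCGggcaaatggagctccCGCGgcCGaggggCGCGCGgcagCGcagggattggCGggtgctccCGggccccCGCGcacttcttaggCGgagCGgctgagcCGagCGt
Cyp4v3: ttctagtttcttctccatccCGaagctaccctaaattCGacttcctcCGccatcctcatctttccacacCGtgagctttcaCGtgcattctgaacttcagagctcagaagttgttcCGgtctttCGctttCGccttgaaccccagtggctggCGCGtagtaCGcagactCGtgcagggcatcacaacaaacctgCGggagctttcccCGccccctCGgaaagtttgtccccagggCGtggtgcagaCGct
C5ar1: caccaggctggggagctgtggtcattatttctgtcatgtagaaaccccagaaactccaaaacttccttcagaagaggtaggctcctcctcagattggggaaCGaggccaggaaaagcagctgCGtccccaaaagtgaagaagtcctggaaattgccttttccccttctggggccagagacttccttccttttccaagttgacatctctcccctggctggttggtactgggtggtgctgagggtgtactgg
The stretch before Src held 40 CpG dinucleotides at a GC content of 82.8%, that before Tmem178 29 at 77.2%, that before Sstr4 28 at 67.2%, that before Cyp4v3 17 at 55.6% and that before C5ar1 2 at 52.8%. Among all 17 such promoters the GC content of this stretch went down to 35.6%, at Ppm1n, so the poorest are not among those printed. The EZH2 peaks covered the stretches of Sstr4 and Cyp4v3 whole and part of the other 3. The printed stretch of Src held no H3K27ac itself, since that mark ended at 157423870 and resumed at 157425408. These 5 were chosen after their values were seen.

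Most of the regions were weak EZH2 peaks, and a few were strong. A q-value of at most 0.05 was listed for 10 of the 212, against 18.1% of all untreated EZH2 peaks, and a −log10 q of at least 5 for 3 of them (3.91% of all). For 120 of the 212 the −log10 q was listed as 0, against 41.6% of all. The 3 strong peaks lay at Neat1, a long non-coding RNA that builds nuclear paraspeckles, inside Nlrp3, which encodes the sensor of the NLRP3 inflammasome, and at Bmi1, which encodes a core subunit of Polycomb repressive complex 1. Their EZH2 folds over the local background were 8.31, 6.26 and 7.31, on 37, 40 and 52 fragments. The highest fold below these was 3.53.

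**Figure D1:**
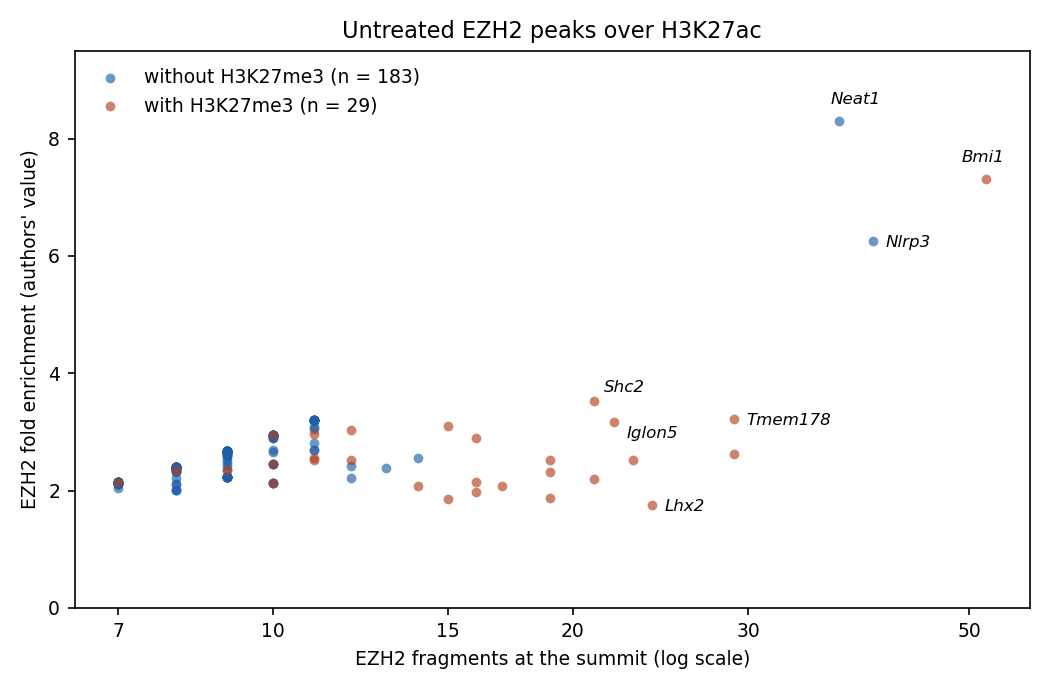
EZH2 fragments at the summit (horizontal, log scale) against EZH2 fold enrichment as the authors listed it (vertical) for each of the 212 peaks over H3K27ac, blue without and red with H3K27me3. Neat1, Nlrp3 and Bmi1 stand above a fold of 6, and all other points lie at or below 3.53.

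Peaks with and without H3K27me3 differed more in depth than in fold. The 183 without it had a median of 9 fragments over a background of 2.74, and 177 of them rested on 7 to 11 fragments. That background was the lowest of any untreated EZH2 peak, and also the lower quartile of the 183, so it was a floor shared by many peaks. The 5345 other EZH2 peaks without H3K27me3 had the same median fragments, background and fold, and 54.2% of them had a −log10 q listed as 0, against 59.6% of the 183. The 29 with it had a median of 16 fragments over a background of 6.25, and their median length was 650 bp against 391 bp. The median folds were 2.52 with H3K27me3 and 2.41 without. Among the 4024 EZH2 peaks with H3K27me3 that were not over H3K27ac, the median was 14 fragments over a background of 3.92, at a fold of 2.73. At least 20 fragments lay under 8 of the 29 and under 2 of the 183, Neat1 and Nlrp3.

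EZH2 fold did not step at the edge of the rule. The 6 regions with the smallest overlap shared 9 to 41 bp with H3K27ac and lay near or in Gmfb, Diras2, Atp6v1g1, Iglon5, Ahnak and Htra3, at EZH2 folds of 2.07 to 2.94. The 6 EZH2 peaks just outside lay 6 to 57 bp from H3K27ac, the closest being near Zscan30 (2.40) and Rtn4 (2.67). In all, 18 of the 212 overlapped H3K27ac by under 100 bp, and 9 other EZH2 peaks lay within 100 bp of it.

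H3K27me3 covered 29 of the 212 regions (13.7%, 9.70 to 19), against 42.3% of all untreated EZH2 peaks. The intervals were apart at low fragment counts and overlapped among strong peaks. Among peaks with 7 to 9 fragments, 3 of 142 over H3K27ac (2.11%, 0.721 to 6.03) and 736 of 4503 others (16.3%, 15.3 to 17.5) met H3K27me3. Among those with 10 to 14 fragments the shares were 9 of 51 (17.6%, 9.57 to 30.3) and 51.4% (49.6 to 53.2). With 15 to 19 fragments the order turned, 9 of 9 (100%, 70.1 to 100) against 90.4% (88.3 to 92.1), and with at least 20 it was 8 of 10 against 91.9% (90.1 to 93.4). At q of at most 0.05 they were 8 of 10 (80.0%, 49.0 to 94.3) and 86.6% (84.9 to 88.1), so the intervals of the strongest peaks overlapped. Members without H3K27me3 still lay nearer to that mark than other EZH2 peaks without it, at a median gap of 59.8 kb against 227 kb, although 9.29% and 8.03% lay within 5 kb.

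In the 29 regions with both marks, the marks lay over the same bases for at least part of the EZH2 peak. All 29 had bases under both, 19 lay wholly under H3K27me3 and 9 wholly under H3K27ac. The EZH2 summit was inside both marks in 16, inside H3K27me3 alone in 7, inside H3K27ac alone in 5 and outside both in 1, at Pou3f1. The H3K27me3 peaks over them had a median length of 3526 bp and a fold of 5.18, and the H3K27ac peaks 915 bp and 3.85. In all H3K27ac peaks the median fold was 3.34, and in all H3K27me3 peaks 3.50.

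**Figure D2:**
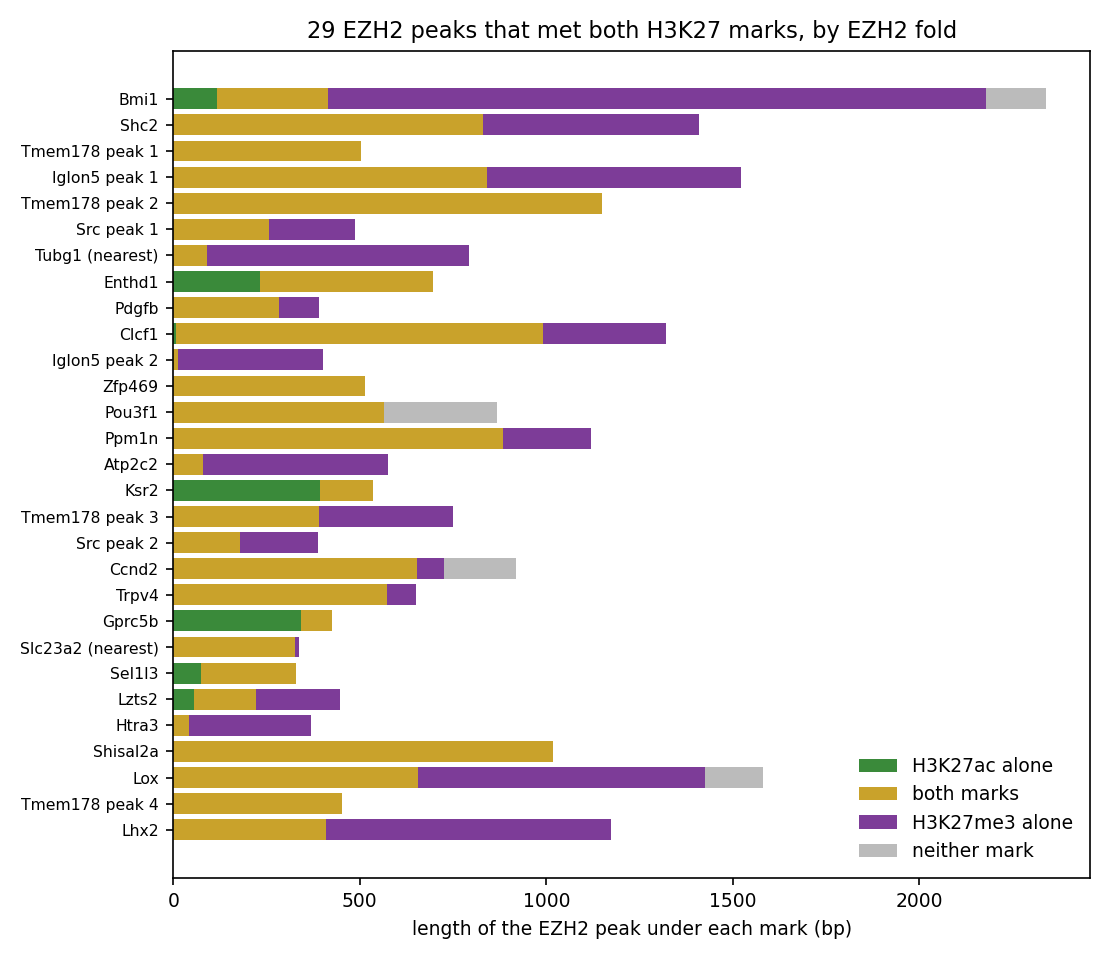
Length of each of the 29 EZH2 peaks that met both marks, in bp, split into bases under H3K27ac alone, both marks, H3K27me3 alone or neither, with the highest EZH2 fold at the top. The segment for both marks is present in every bar and fills the whole bar for Zfp469, Shisal2a and 3 of the 4 Tmem178 peaks.

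At Bmi1, acetylation was short and lay at one end of a long EZH2 peak. EZH2 covered 2340 bp (chr2:18677641-18679980), H3K27ac 414 bp at its left end (fold 3.0, 19 fragments) and H3K27me3 2434 bp from 18677919 on (fold 4.10, 32 fragments). The EZH2 summit lay inside H3K27ac, 885 bp past the start of the gene, and H3K27me3 began 16 bp further on. A separate H3K27ac peak of 1.93-fold lay about 5 kb upstream, just past the start of the neighbouring gene Commd3. After nigericin EZH2 was listed over the same stretch at 6.18-fold on 46 fragments, and p53 and SIRT1 had no peak over it.

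Both developmental transcription factor genes had acetylated and methylated stretches of very unequal length. Pou3f1, a POU-homeodomain factor, had EZH2 at 2.53-fold on 23 fragments, H3K27ac at 7.36 and H3K27me3 at 5.39. Lhx2, a LIM-homeodomain factor, had the weakest EZH2 fold of all 212 regions, 1.76 on 24 fragments, over the highest local background of any region here, 13.2. The H3K27me3 peak over Lhx2 was 38196 bp long at 11.1-fold, while the H3K27ac peak inside it was 408 bp at 3.25-fold. At Pou3f1 the order was the opposite, with 9438 bp of H3K27ac and 3526 bp of H3K27me3.

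Shc2, Src, Pdgfb and Clcf1 were among the 12 highest EZH2 folds with H3K27me3. At the start of Shc2, an adaptor of receptor tyrosine kinases, EZH2 was 3.53-fold on 21 fragments, with H3K27me3 at 7.04 over the whole peak and 2 H3K27ac peaks of 5.19 and 3.17 beneath it. Src, the founding non-receptor tyrosine kinase, had EZH2 peaks on either side of its start, at 2.34-fold on 9 fragments and 3.03-fold on 12. The start itself, at 157424293, lay in a gap between them that was also a gap of both histone marks. Pdgfb, the B chain of platelet-derived growth factor, had EZH2 inside the gene at 2.90-fold on 16 fragments, H3K27ac at 2.30 and H3K27me3 at 4.15. Clcf1, a cytokine of the interleukin-6 family, had 2.63-fold on 29 fragments, with H3K27ac at 5.76 and H3K27me3 at 5.87.

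Tmem178, which encodes a membrane protein of the endoplasmic reticulum, held 4 of the 29 regions within 4495 bp. Their EZH2 folds were 3.10, 3.22, 1.85 and 2.35 along the chromosome, on 15, 29, 15 and 8 fragments. The first 3 lay wholly under 1 H3K27ac peak of 9586 bp at 5.59-fold and all 4 under 1 H3K27me3 peak of 5277 bp at 4.98-fold. Iglon5, a cell-adhesion protein of the immunoglobulin superfamily, held 2 regions (3.17 and 2.55) under the highest H3K27me3 fold of the 29, 12.1, with separate H3K27ac peaks of 4.19 and 4.58. A region between genes at chr11:101139901-101140692, with Tubg1 as the nearest coding gene at 13.5 kb, had 2.96-fold, and Enthd1 2.94-fold on 10 fragments.

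The remaining regions with both marks had EZH2 folds of 1.87 to 2.53. Chosen after their values were seen, they included Ccnd2 (cyclin D2, 2.32 on 19 fragments), Trpv4 (a cation channel, 2.20 on 21), Lox (lysyl oxidase, which cross-links collagen, 1.87 on 19) and Htra3 (a serine protease, 2.07 on 14). At Trpv4 H3K27ac was the stronger mark (6.48 against 3.93), and at Lox and Htra3 H3K27me3 was (6.43 against 3.13, and 6.84 against 3.33). Ksr2, a scaffold of the RAF-MEK cascade, and Gprc5b, an orphan receptor, lay wholly under H3K27ac. They overlapped weak H3K27me3 peaks of 2.54 and 2.85 by 142 and 85 bp, where those peaks were 350 and 676 bp long.

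Neat1 and Nlrp3 were the 2 strong regions without H3K27me3, and at both of them EZH2 sat with p53. Among other EZH2 peaks without H3K27me3 that had at least 20 fragments, p53 also met 45 of 82 (54.9%, 44.1 to 65.2). At Neat1, untreated EZH2 spanned chr19:5845395-5846324 at 8.31-fold on 37 fragments, and p53 spanned 5845435-5846265 at 7.14-fold on 24. One annotated end of Neat1, at 5845480, lay 119 bp before the EZH2 summit. The H3K27ac peak there was 3719 bp long at 4.16-fold and ended 848 bp past the summit, and a stronger one of 8.03-fold began 1211 bp past it. After nigericin the EZH2 peak over this place was 331 bp at 2.82-fold on 11 fragments, with a −log10 q of 0.197 against 20 in untreated cells. The 4 SIRT1 lists held 12 peaks within 8 kb of the summit and none over the EZH2 peak itself.

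At Nlrp3, 4 libraries listed nearly the same interval inside the gene. Untreated EZH2 spanned chr11:59548030-59549714 (6.26-fold, 40 fragments), nigericin EZH2 59548026-59549614 (5.67-fold, 24 fragments), p53 59548014-59549674 (9.33-fold, 41 fragments) and H3K27ac 59547901-59549712 (3.75-fold, 19 fragments). The H3K27ac peak at the start of Nlrp3, 80 fragments at 4.86-fold, lay more than 5 kb upstream of the EZH2 summit and held no EZH2 or p53 peak. A SIRT1 peak of 4 fragments (2.70-fold) in Ezh2-KO cells lay under the EZH2 peak, and the other 3 SIRT1 lists had none there. EZH2 and p53 share an input by the library names, and its part in this common interval was not tested.

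**Figure D3:**
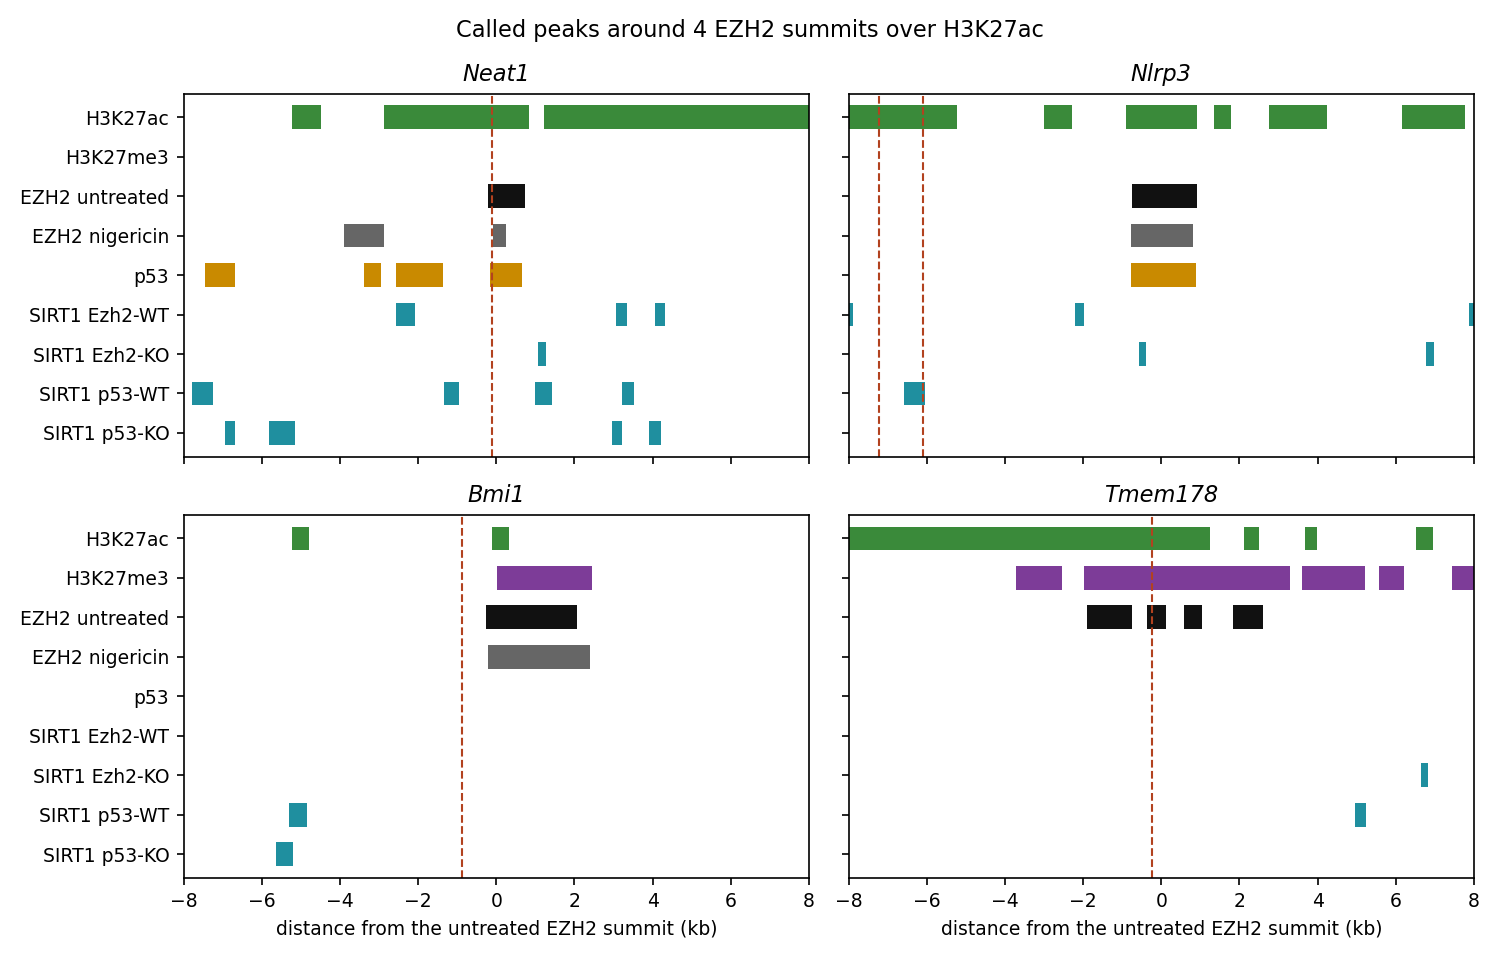
Called peaks of the 9 lists from 8 kb before to 8 kb after the untreated EZH2 summit at Neat1, Nlrp3, Bmi1 and Tmem178, in genome order, with dashed lines at annotated starts (at Neat1, an annotated end). Bars show where peaks were called and not their height, and EZH2, nigericin EZH2 and p53 coincide at Nlrp3.

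Below those 2, no region without H3K27me3 exceeded a fold of 3.21. Of the 12 highest folds, 9 were tied at 3.21 on 11 fragments, inside Phlpp1 (a phosphatase of AKT), Zranb3, Gosr2 (a Golgi SNARE), Cdkal1, Lpp, Agpat4, Ahnak (a giant scaffold protein) and Tlk1 and 10.7 kb from Klhl38, and the last was near Cep78 (3.18). H3K27ac folds at these 10 ran from 2.18 at Ahnak to 6.25 near Klhl38. Of the 10, only Ahnak met a further list, with a SIRT1 peak of 4 fragments in Ezh2-WT cells. The strongest acetylation did not coincide with the strongest EZH2. The 6 highest H3K27ac folds, 7.18 to 8.51, lay over EZH2 folds of 2.41 to 2.94, at Gpr137b (8.04), Pou3f1 (7.36), Bmp10 (7.18) and 3 regions outside coding genes, to which Ptchd3 (8.51), Bod1 (8.01) and Rapgef5 (7.86) were the nearest.

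Of the genes on the gene lists, Tlr4 and Txnip also held a region without H3K27me3, at few fragments. At the start of Tlr4, the LPS receptor, EZH2 was 2.24-fold on 9 fragments, and at the start of Txnip, a thioredoxin-binding protein, also 2.24-fold on 9. Chosen after their values were seen, further starts were those of C5ar1, the receptor of complement C5a (2.23 on 9), and 3 genes of MHC class I, H2-T10 (2.90 on 10), Nlrc5, its transactivator (2.36 on 8), and B2m, its light chain (2.14 on 7). None of these 6 had a q of at most 0.05. Regions within 20 kb of each other formed 12 groups of 27 regions in all, of which 9 groups had no H3K27me3, such as 3 regions in Ahnak and, also chosen after its values were seen, 2 in Cd44, the hyaluronan receptor.

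Position relative to genes differed between regions with and without H3K27me3. Within 1 kb of a start (of either gene end where RefSeq gives no strand) lay 42 of the 212 (19.8%, 15 to 25.7), against 25.1% of all untreated EZH2 peaks. The share was 19 of 29 with H3K27me3 (65.5%, 47.3 to 80.1) and 23 of 183 without (12.6%, 8.52 to 18.2). Other EZH2 peaks stood at 51.0% with H3K27me3 and 5.78% (5.19 to 6.44) without, so the interval of the regions without H3K27me3 lay above that of their counterparts. Within 5 kb lay 40.6% of the 212, against 44.9% of all, and inside a gene 66.5%, against 57.9% of all. Between genes lay 1 of 29 with H3K27me3 and 64 of 183 without (35.0%, 28.4 to 42.1), against 38.5% of all and 53.9% of other EZH2 peaks without H3K27me3.

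RefSeq promoters of 300 bases (250 before to 50 after the start) overlapped few of these peaks, 9 promoters of 7 genes with H3K27me3 and 8 of 8 genes without. Median GC content was 59.0% with H3K27me3 and 47.2% without, beside 53% over all 32619 promoters and 57.0% over the 3629 under H3K27ac. It was 64.7% over the 940 under other EZH2 peaks with H3K27me3. The ratio of observed to expected CpG was 0.602 with H3K27me3 and 0.205 without. Beside these, it was 0.387 over all promoters, 0.567 over those under H3K27ac and 0.716 over the 940. The 30 promoters under other EZH2 peaks without H3K27me3 were like the 8, at 47.2% GC and a ratio of 0.191. Individual promoters crossed this order. Sstr4, a somatostatin receptor gene without H3K27me3, stood at 1.00 and Htra3, with H3K27me3, at 0.146, as low as C5ar1 at 0.140. These are single stretches of 17 promoters, some of which share a gene, so no difference was tested. Several belong to transcripts without a formal gene name. With H3K27me3 these were Gm46736, Gm32297 and 9330179D12Rik, and without it Gm30378, Gm42312 and 9330175E14Rik.

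Letters of 5 short motifs were searched on both strands of the same 300 bases, as a description of these windows only. The ETS motif of PU.1, GAGGAAG, was in 4 of the 9 promoters with H3K27me3 and 1 of the 8 without, against 13.4% of all promoters. The 4 are of 3 genes, since 2 are overlapping windows of 9330179D12Rik. The AP-1 motif TGANTCA was in 0 and 1 (7.85% of all), the GC-box GGGCGG in 3 and 2 (35.9%), the NRF1 motif GCGCATG in 0 and 0 (3.92%) and the E-box CACGTG in 0 and 2 (7.20%). A promoter was counted as with or without each motif, and matches of different motifs may overlap.

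**Figure D4:**
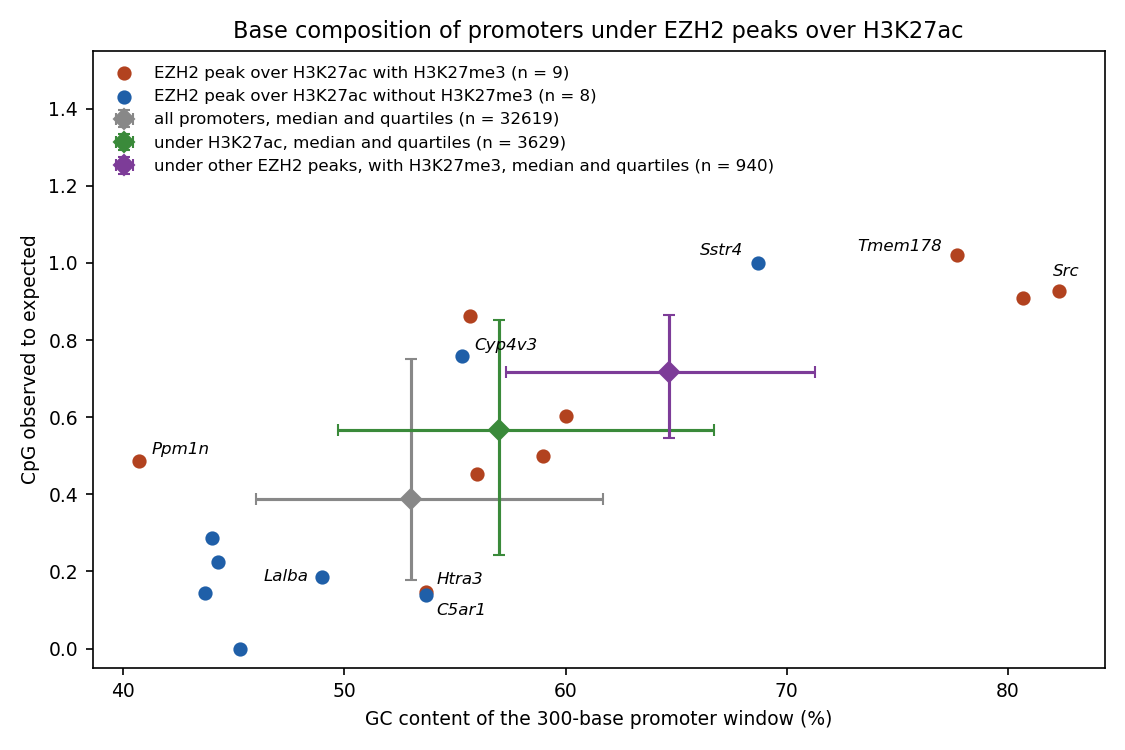
GC content (horizontal, %) against the ratio of observed to expected CpG (vertical) of 300-base promoter windows. Dots are the 9 promoters under EZH2 peaks with both marks (red) and the 8 with H3K27ac alone (blue), and diamonds with bars are medians and quartiles of promoter classes. Src and Tmem178 lie at the upper right with 82.3% and 77.7% GC, and 5 of the 8 blue dots lie below 50% GC.

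After LPS and nigericin, EZH2 was listed over 9 of the 212 regions (4.25%, 2.25 to 7.87), against 16.6% of all untreated EZH2 peaks. These were Bmi1 (6.18-fold), Nlrp3 (5.67), Neat1 (2.82), Shc2 (2.29), the region near Tubg1 (2.52), the start of H2-T10 (2.99), a region near Ear2 (1.95), a start near Ergic1 (3.08) and Mid1 (2.36). Only at Bmi1 and Nlrp3 was the nigericin −log10 q above 1.3 (17.8 and 8.14), and at the other 7 it was at most 0.417. H2-T10, Ergic1, Ear2 and Mid1 are named because they complete the 9.

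Regions with H3K27me3 met nigericin EZH2 less often than other EZH2 peaks with that mark, and the intervals were apart in 2 of 4 bands of fragments. The count was 3 of 29 (10.3%, 3.58 to 26.4), against 36.2% (34.7 to 37.7) of other EZH2 peaks with H3K27me3. The 29 are not independent, since Tmem178 held 4 of them and Src and Iglon5 2 each, none of which met nigericin EZH2. Peaks of Tmem178 fell in both bands whose intervals were apart, and the intervals take no account of such grouping. With at least 20 fragments it was 2 of 8 (25%, 7.15 to 59.1) against 65.7% (62.6 to 68.7), and with 15 to 19 fragments 0 of 9 (0 to 29.9) against 45.3%. The intervals overlapped with 10 to 14 fragments, 1 of 9 (1.99 to 43.5) against 26.9%, with 7 to 9 fragments, 0 of 3 (0 to 56.1) against 6.79%, and at q of at most 0.05, 2 of 8 against 59.3% (56.7 to 61.7). Split by fold instead, it was 0 of 14 against 22.7% below a fold of 2.5, 1 of 9 against 28.0% from 2.5 to 3 and 2 of 6 against 56.0% from 3 up, and at each step the intervals overlapped. Regions without H3K27me3 stood at 6 of 183 (3.28%, 1.51 to 6.97), with an interval that contains the 2.30% of other EZH2 peaks without H3K27me3. The nigericin list was shorter and rested on a different background, and the part of its depth in these shares was not tested.

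Seen from the nigericin list, 212 of its 5054 peaks (4.19%, 3.68 to 4.78) lay over the H3K27ac of untreated cells, by coincidence the same number as in untreated cells. Of these 212, 9 met H3K27me3 and 9 met an untreated EZH2 peak. H3K27ac was not mapped after nigericin among these samples, so the acetylation of these places in treated cells is not known here.

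Of the 212 regions, 4 met p53 (1.89%, 0.736 to 4.75), against 2.41% of all untreated EZH2 peaks, and none of the 4 had H3K27me3. They were Nlrp3 (9.33-fold), Neat1 (7.14), a region on chromosome X (chrX:38849936-38850527, 215 kb from its nearest coding gene C1galt1c1) at 3.91-fold on 15 fragments, and the start of Cyp4v3, a fatty-acid hydroxylase gene, at 2.72-fold on 7. Of the 4, the first 3 had a p53 −log10 q of at least 1.84, and at Cyp4v3 it was listed as 0. Among other EZH2 peaks without H3K27me3 the share with p53 was 4.08% (3.58 to 4.64), inside the interval of the 183 (2.19%, 0.853 to 5.48). The H3K27ac peak at Cyp4v3 was 2882 bp at 6.17-fold.

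SIRT1 lists were met more often than by other EZH2 peaks without H3K27me3. At least 1 of the 4 lists had a peak over 40 of the 212 (18.9%, 14.2 to 24.7), against 13.5% of all untreated EZH2 peaks. Without H3K27me3 the share was 31 of 183 (16.9%, 12.2 to 23.0) against 6.23% (5.61 to 6.91), and among peaks of 7 to 9 fragments 24 of 139 (17.3%, 11.9 to 24.4) against 5.31% (4.64 to 6.07). With 10 to 14 fragments it was 6 of 42 (14.3%, 6.72 to 27.8) against 6.63% (5.44 to 8.05), with overlapping intervals. With H3K27me3 it was 9 of 29 (31.0%, 17.3 to 49.2) against 22.9% (21.6 to 24.2), and the intervals overlapped. When every list compared was limited to its 4878 lowest p-values, each SIRT1 list met at most 1.42% of the 212 regions. No such share is given for other EZH2 peaks, so this value does not compare them with the 212.

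A higher SIRT1 share over H3K27ac was found for peaks of other lists too. Peaks over H3K27ac without H3K27me3 met SIRT1 in 25.1% of cases in the nigericin EZH2 list (51 of 203) and in 22.3% in the p53 list (23 of 103). Peaks without either mark did so in 8.12% and 4.4%. Of the SIRT1 peaks themselves, between 10% and 15.5% lay over H3K27ac, against 2.11% of p53 peaks and 1.89% of H3K27me3 peaks. SIRT1 shares were thus higher over H3K27ac in all 3 lists compared, 2 of EZH2 and 1 of p53.

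By genotype, the SIRT1 lists met 15 of the 212 in Ezh2-WT (7.08%, against 5.25% of all untreated EZH2 peaks), 11 in Ezh2-KO (5.19%, against 2.26%), 9 in p53-WT (4.25%, against 4.8%) and 12 in p53-KO cells (5.66%, against 4.08%). The lists differ in length, from 18087 peaks in Ezh2-KO to 74346 in Ezh2-WT, so these counts do not compare genotypes. Every one of these SIRT1 peaks rested on 3 to 7 fragments, none with a q of at most 0.05. Ksr2 met 3 SIRT1 lists, with 3 fragments in Ezh2-WT, 5 in Ezh2-KO and 4 in p53-KO cells. Regions in 2 SIRT1 lists were those in Iglon5, Gprc5b and Arhgap30, and those near Slfn4 and Znrf2, the one in Arhgap30 being named after its values were seen. No region met all 4.

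**Figure D5:**
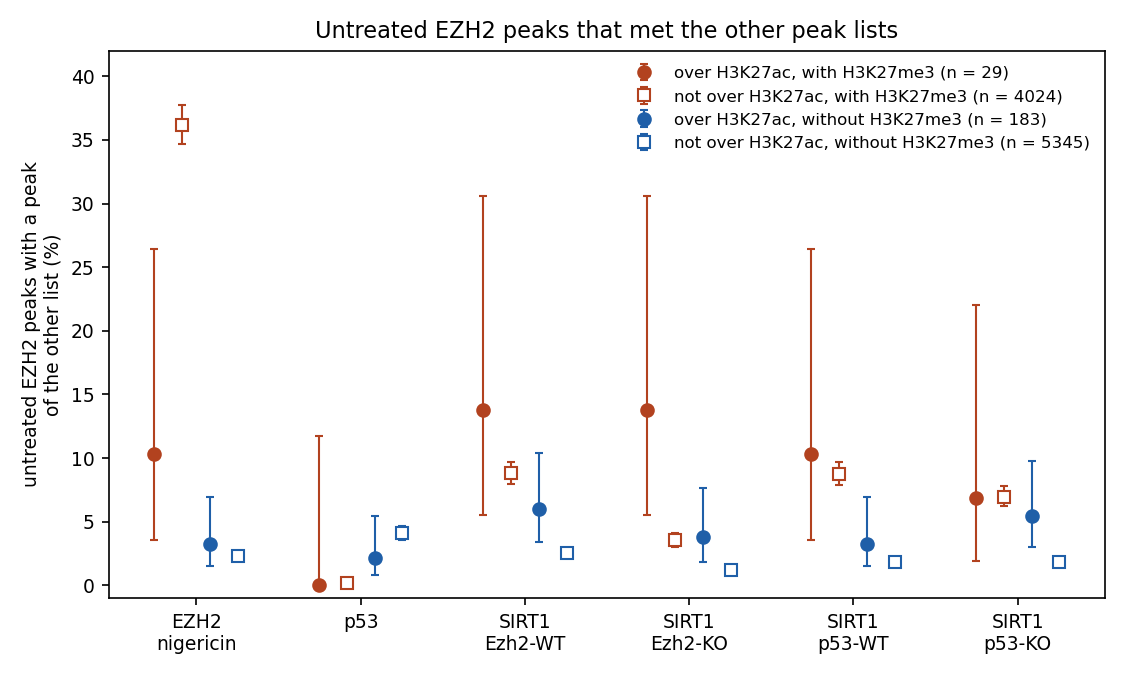
Share of untreated EZH2 peaks (%, vertical) that overlapped a peak of each other list (horizontal), with Wilson 95% intervals for counting error. Filled circles are the peaks over H3K27ac and open squares all others, red with and blue without H3K27me3. For nigericin EZH2 the red circle is at 10.3% and the red square at 36.2%.

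Counting all 7 other lists, 145 of the 183 regions without H3K27me3 (79.2%, 72.8 to 84.5) had no further peak, against 51.2% of all untreated EZH2 peaks and 89.0% of other EZH2 peaks without H3K27me3. The region in Ksr2 met 4 of the other lists, and those in Nlrp3, Iglon5 and Gprc5b met 3. Another 13 met 2, and 50 met 1.

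From the side of acetylation, EZH2 was rare. Of the 51582 H3K27ac peaks, 209 held an untreated EZH2 peak (0.405%). Where the H3K27ac peak also met H3K27me3, the share was 32 of 1732 (1.85%, 1.31 to 2.60), and where it did not, 177 of 49850 (0.355%, 0.307 to 0.411). After nigericin the shares were 0.577% (0.314 to 1.06) and 0.399% (0.348 to 0.459), with overlapping intervals. The median lengths of the 2 kinds of H3K27ac peak, 715 and 791 bp, were alike.

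Few members of the gene lists held such a region at the start or inside the gene, where 0.499% of the 21627 protein-coding genes did. Of 35 Polycomb-regulated developmental genes it was 2, Lhx2 and Pou3f1, while 33 had EZH2 at the start or inside the gene. At the start, 35 of them had H3K27me3 and 2 had H3K27ac. Of 20 macrophage identity genes it was 1, Tlr4, while 19 had H3K27ac at the start and 3 had any EZH2 peak there or inside the gene. Of 15 inflammasome and pyroptosis genes it was 2, Nlrp3 and Txnip, and of 24 Polycomb and H3K27 enzymes 1, Bmi1. Of 10 nuclear long non-coding RNAs it was 1, Neat1, and of 15 signalling receptors and growth factors 1, Pdgfb. Nlrp3, Bmi1 and Neat1 were known from earlier results of these data, so the counts of their lists cannot be set against the share of all genes. That share also covers protein-coding genes only, and Neat1 is not one. None of 20 NF-kB and LPS response genes or 15 ribosomal protein genes held one, though 16 and 12 of these had H3K27ac at the start. No share over all genes is given for EZH2, H3K27me3 or H3K27ac, so their counts in these lists are descriptions only. Of the 32619 RefSeq promoters, 3629 lay under H3K27ac, but this counts promoter windows and not genes.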

How the data were processed

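ChIP-seq peak lists of 9 immunoprecipitated libraries were used, 1 per group, and the 7 inputs entered only through the authors' peak calling. The submitters' processing notes name MACS2, deepTools and the build GRCm38/mm10, without versions, and no aligner or filter on reads is stated. Each deposited list has 10 columns, 1 library and no pooling. The deposited fold column is a ratio, the summit's fragments over those of the background, solved here with 1 added to each. The deposited −log10 columns hold each peak's p-value and q-value. The deposited score column was not used beyond a check. From the values, the EZH2, p53 and SIRT1 lists had been limited at p of 0.01 and the histone lists at q of 0.05, so many EZH2 peaks are weak. How many reads each library had is not stated.

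Peaks on chromosomes 1 to 19 and X were compared by overlap of at least 1 bp, in Python 3.11.15 with pandas 2.3.3, and the overlap code was tested on simulated peaks. Fragments at a summit were solved from fold and p under a Poisson model with whole numbers (tolerance 0.0001 on the −log10 p) in 99.94% or more of those solved per list, which were all EZH2 and p53 peaks and a sample of the longer lists. Shares have Wilson 95% intervals, and with n = 1 no test was made. Genes and promoters came from RefSeq (GRCm38); promoters were given for 26794 of 49550 genes, Neat1 not among them. Peak sequences, exons and introns were not used here, since no genome was used.

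The regions and gene lists were chosen with earlier results of these data known. Genes were named by rule: regions with −log10 q of at least 5, the 12 highest EZH2 folds with and without H3K27me3, all with p53 (up to 10), the 10 in most lists, the 6 highest H3K27ac folds, and regions at listed genes; others are marked as chosen after their values were seen. Names "near" are the nearest coding gene. Alternatives were stricter EZH2 or H3K27ac peaks, 50% overlap, the summit in H3K27ac, lists of equal length, a 5 kb window, and leaving out regions in all 9 lists. Keeping 1 region per H3K27ac peak, requiring 10 fragments, and the splits by fragments and fold were added after seeing the data.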

Additional observations from a re-analysis of the deposited data

How the results depend on the processing

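Of 71 alternative values, 51 stayed within the interval of the reported share or within 1.5 times of the reported count, and 20 did not. With EZH2 peaks of q at most 0.05, the 212 regions fell to 10. Of these, 80.0% met H3K27me3, 40.0% nigericin EZH2 and 20% p53, and 70.0% lay at a start. The Ezh2-KO, p53-WT and p53-KO SIRT1 lists each met 10%. Of the other EZH2 peaks at that q, 86.6% met H3K27me3, 53.5% nigericin EZH2 and 3.25% p53. These 3 SIRT1 lists met 5.75%, 12.6% and 10.2% of them. With at least 10 fragments, chosen after seeing the data, 70 regions were left, with 37.1% under H3K27me3, 11.4% with nigericin EZH2 and 37.1% at a start. Other EZH2 peaks with at least 10 fragments stood at 67.6% for H3K27me3 and 31.0% for nigericin EZH2. With H3K27ac of −log10 q at least 5, 123 were left. With compared lists cut to 4878 peaks, H3K27me3 fell to 8.49% and SIRT1 to 0.0% (Ezh2-WT), 1.42% (Ezh2-KO), 1.42% (p53-WT) and 0.472% (p53-KO). No share with lists cut this way is given for other EZH2 peaks. An overlap of 50% gave 2.82% for p53-KO SIRT1, and a 5 kb window put 40.6% at a start. Leaving out regions in all 9 lists removed none, as there were 0, so its values, counted among the 51, could not move. The p53 list itself held 4878 peaks, so its share with lists cut to that length could not move either. Each of these alternatives changes by construction which peaks are counted. No paired analysis was possible because each group had 1 library. Few fragments limit the precision: 142 of the 212 regions rested on 7 to 9.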
